A study of Mus musculus with 12 samples.

Results

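The Zscan4 cluster is a row of near-identical genes on mouse chromosome 7, and its contact with the nuclear lamina was followed through 4 maps of lamina-associated domains (LADs). The 6 genes were taken by name, Zscan4a, Zscan4b, Zscan4c, Zscan4d, Zscan4e and Zscan4f, out of 45966 annotated genes in the span of the maps. They lie between 10794241 and 11402318 of chromosome 7 (GRCm38), a stretch of 608 kb, each 4.3 to 4.8 kb long. The midpoint of a gene decided whether it was scored as inside a LAD, and LAD borders were read up to 5 Mb on either side of the cluster.

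LADs were mapped by DamID, in which the bacterial methyltransferase Dam, fused to lamin B1, marks GATC sites close to the lamina. The embryos were of the cross (C57BL/6J xCBA) x DBA/2J, and the groups were siRif1 8-cell, siControl 8-cell, siRif1 4-cell and siControl 4-cell embryos, with 3 replicates each. The siRNA was injected into zygotes at 20 µM. All groups then received mRNA for the auxin-degradable Dam-LaminB1 fusion, the auxin receptor Tir1 and a membrane eGFP in both blastomeres of the 2-cell embryo. All were kept in 500 µM auxin until it was removed at 66 h after hCG for 8-cell embryos (collected at 72 to 74 h) and at 54 h for 4-cell embryos (collected at 60 to 62 h). Each replicate pooled 16 to 24 blastomeres, and the authors deposited 1 list of LADs per group made from its 3 replicates. The maps thus show neither the spread between replicates nor the depth of sequencing. A difference between them is a description with no p-value. They also hold no RNA levels, so neither the knockdown nor expression of Zscan4 can be read from them.

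Zscan4 proteins carry a SCAN domain and zinc fingers. In the mouse they are made in a burst at the 2-cell stage, when the embryonic genome is first switched on, and again in rare 2-cell-like cells of embryonic stem cell cultures, where Zscan4 is known for its part in lengthening telomeres. The homeobox protein Dux switches on the 2-cell programme that includes Zscan4. At the 4-cell and 8-cell stages that programme is being shut down. Rif1 is a chromatin protein known for setting replication timing. Lamina association is commonly linked with low transcription and late replication.

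Of the 6 genes, 4 have an annotated promoter in the RefSeq table (GRCm38.p6), with its strand. Zscan4b and Zscan4d run on the minus strand, Zscan4c and Zscan4f on the plus strand. The 250 bases before the annotated start are shown for 1 gene of each LAD pattern described below, because they show how alike in sequence genes of different LAD state are. Capitals mark GATC, the site that Dam methylates, and TATAAA, the core of a TATA box. Both were searched on both strands and do not overlap.
Zscan4b (chr7:10905051-10905300, minus strand): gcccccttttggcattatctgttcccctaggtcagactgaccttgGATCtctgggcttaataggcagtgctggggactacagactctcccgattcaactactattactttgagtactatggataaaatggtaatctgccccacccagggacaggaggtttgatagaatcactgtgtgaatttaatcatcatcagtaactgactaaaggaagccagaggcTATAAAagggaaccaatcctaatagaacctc
Zscan4c (chr7:11005495-11005744, plus strand): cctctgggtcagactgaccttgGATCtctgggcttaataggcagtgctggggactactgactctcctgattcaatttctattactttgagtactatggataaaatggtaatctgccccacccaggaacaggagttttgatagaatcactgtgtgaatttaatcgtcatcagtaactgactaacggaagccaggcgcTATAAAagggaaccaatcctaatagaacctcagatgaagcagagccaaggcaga
Zscan4f (chr7:11397665-11397914, plus strand): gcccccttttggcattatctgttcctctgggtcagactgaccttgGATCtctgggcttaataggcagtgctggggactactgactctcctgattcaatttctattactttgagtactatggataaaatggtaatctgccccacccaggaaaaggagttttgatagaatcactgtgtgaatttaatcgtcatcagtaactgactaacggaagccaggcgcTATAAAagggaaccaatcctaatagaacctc

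Each of the 4 promoters held 1 GATC and 1 TATAAA on the gene's own strand. GATC began at -205 from the annotated start in Zscan4b and in Zscan4f, at -228 in Zscan4c and at -239 in Zscan4d. TATAAA began at -31, -31, -54 and -65 in the same order, so the annotated starts are offset between copies that otherwise line up. In windows of the same length, 41.9% of 32851 RefSeq promoters held GATC, 12.4% held TATAAA on either strand and 7.6% held it on the gene's strand. Identity over the aligned bases ran from 94.7% (Zscan4b and Zscan4c, 215 of 227 bases) to 99.6% (Zscan4c and Zscan4f, 226 of 227 bases). Zscan4c and Zscan4f, which differ at 1 aligned base here, were in different LAD states in siControl 8-cell embryos. How reads from such copies were placed is not given in the sources used here, and its part in the LAD calls was not tested.

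None of the 6 Zscan4 genes lay in a LAD in siRif1 8-cell embryos. In siControl 8-cell embryos 4 did, Zscan4a, Zscan4b, Zscan4c and Zscan4d. In siRif1 4-cell and in siControl 4-cell embryos 2 did, Zscan4a and Zscan4b. Of the 6 genes 4 are protein-coding. Of these 4, 0 were in LADs in siRif1 8-cell, 3 in siControl 8-cell and 1 in each 4-cell group. Of all 20144 protein-coding genes in the span, 24.2% were in LADs in siRif1 8-cell, 26.3% in siControl 8-cell, 24.0% in siRif1 4-cell and 24.7% in siControl 4-cell embryos. The cluster is small and its genes are neighbours, so they are not independent observations of a condition.

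The genes fell into 3 blocks along the chromosome. Zscan4a (10794241 to 10799065), annotated as a transcribed pseudogene, and the protein-coding Zscan4b (10900740 to 10905050) were outside LADs in siRif1 8-cell embryos and in LADs in the other 3 groups. The protein-coding Zscan4c (11005745 to 11010547) and Zscan4d (11161643 to 11166148) were in a LAD in siControl 8-cell embryos alone of the 4 groups. Zscan4e (11306369 to 11310682), annotated as a pseudogene, and the protein-coding Zscan4f (11397915 to 11402318) were outside LADs in every map. The first pattern was found for 662 protein-coding genes (3.29%), the second for 757 (3.76%) and the third for 11570 (57.4%).

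**Figure D1:**
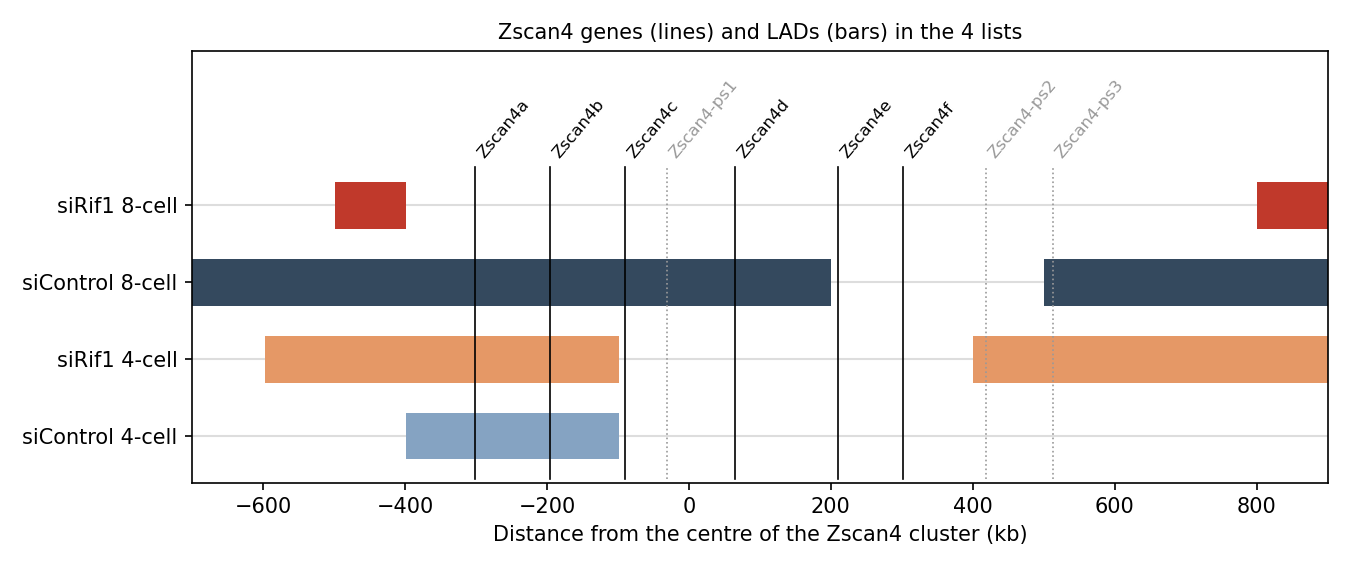
Genes of the Zscan4 family (solid lines, the 6 genes; dotted lines, 3 further pseudogenes) and LADs (bars) in the 4 maps, against distance in kb from the centre of the cluster. Bars reach Zscan4a and Zscan4b in 3 maps and Zscan4c and Zscan4d in siControl 8-cell embryos alone, and the siRif1 8-cell map has none over the 6 genes.

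In siRif1 8-cell embryos the nearest LAD before the cluster was 0.1 Mb long, from 10600001 to 10700000, and ended 94.24 kb short of Zscan4a. It is a single bin of the 100-kb grid, a length shared by 61 of the 738 LADs of that map (8.3%). The next LAD began at 11900001, which left 1.2 Mb outside LADs with all 6 genes in it.

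In siControl 8-cell embryos a LAD of 1.5 Mb ran from 9800001 to 11300000 and took in Zscan4a to Zscan4d. Zscan4d lay well inside, 136.1 kb from the border by its midpoint, whereas Zscan4e began 6.37 kb beyond it. After a gap of 0.3 Mb the next LAD ran from 11600001 to 15400000. Zscan4e and Zscan4f were in that gap, so in this map the far end of the cluster sat between 2 LADs.

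At the 4-cell stage the near LAD ended at 11000000 in both groups, between Zscan4b and Zscan4c. It began at 10500001 in siRif1 and at 10700001 in siControl embryos, and was 0.5 and 0.3 Mb long. Zscan4b ended 94.95 kb before this border and Zscan4c began 5.75 kb after it. A shift of the border outward by 1 bin would therefore change the state of Zscan4c. The midpoint of Zscan4b was 97.1 kb inside the border, so a shift inward by 1 bin would change the state of Zscan4b. Zscan4b and Zscan4c run away from each other, with starts at 10905050 and 11005745. In both 4-cell groups these starts lay on either side of the LAD border. Placing the 4 genes of known strand by their transcription start left every state as it was.

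Distance from the lamina-associated stretch also differed for the genes that were outside LADs. By midpoint, Zscan4f was 499.9 kb from the nearest LAD in siRif1 8-cell embryos and 100.1 kb in siControl 8-cell embryos. At the 4-cell stage it was 99.9 kb away in siRif1 and 400.1 kb in siControl embryos. The short distance in siRif1 4-cell embryos came from the far side, where the next LAD began at 11500001, against 12400001 in siControl 4-cell embryos. The stretch of 1.4 Mb outside LADs in siControl 4-cell embryos was the longest of the 4 maps over the cluster, against 0.5 Mb in siRif1 4-cell embryos.

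The family has 3 further pseudogenes here. Zscan4-ps1, between Zscan4c and Zscan4d, had their state in each map. Zscan4-ps2 (11514287 to 11518688) was in a LAD in siRif1 4-cell embryos alone, and Zscan4-ps3 (11609308 to 11614112) in siControl 8-cell and siRif1 4-cell embryos. In siRif1 8-cell and in siControl 4-cell embryos none of the 3 was in a LAD.

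At the 8-cell stage, then, siRif1 embryos had 4 fewer of the 6 genes in LADs than siControl embryos, and none more. Of the 4 protein-coding Zscan4 genes, 0 were in LADs in siRif1 and 3 in siControl embryos. Among all protein-coding genes, 9.37% were in LADs in siControl 8-cell and not in siRif1 8-cell embryos, and 7.33% the other way round. The net difference of 4 genes was the same under each of the 7 alternatives tried, but not always for the same genes. With LADs longer by 1 bin at each end, 1 gene was in a LAD in siRif1 and 5 in siControl embryos. Zscan4a, 96.7 kb from the nearest siRif1 8-cell LAD, and Zscan4e, 8.5 kb from the nearest siControl 8-cell LAD, were then taken in. The siRif1 8-cell map covered 1 of the 15 bins of the siControl 8-cell LAD (6.67%). Over the 746 siControl 8-cell LADs the median covered was 75.0%, and 152 (20.4%) were covered to this degree or less. Its start was 0.8 Mb and its end 0.6 Mb from the nearest start and end in the siRif1 8-cell map, against medians of 0.4 and 0.4 Mb over all LADs. Borders at least that far from their nearest counterpart made up 34.9% of starts and 42.8% of ends. Neither distance is thus rare on its own in this pair of maps. How often both borders of a LAD were this far was not counted.

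At the 4-cell stage no Zscan4 gene differed in state between siRif1 and siControl embryos in the lists as deposited. With LADs longer by 1 bin at each end the counts were 4 in siRif1 and 3 in siControl embryos, and with LADs shorter by 1 bin 1 and 0 in the same order. Across protein-coding genes, 7.37% were in LADs in siRif1 4-cell embryos alone and 8.08% in siControl 4-cell embryos alone. The end of the near LAD was at the same position in both maps, as for 99 of 601 siControl LAD ends (16.5%). A siRif1 end lay within 1 bin of 194 of the 601 (32.3%).

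From the 4-cell to the 8-cell stage the 2 treatments went opposite ways. In siRif1 embryos 0 genes were in LADs at the 8-cell stage and 2 at the 4-cell stage, with Zscan4a and Zscan4b lost (all protein-coding genes, 8.83% added and 8.58% lost). In siControl embryos 4 genes were in LADs at the 8-cell stage and 2 at the 4-cell stage, with Zscan4c and Zscan4d added and none lost (all protein-coding genes, 11.2% added and 9.59% lost). In siRif1 embryos the near LAD was shorter at the 8-cell stage by 0.1 Mb at its start and 0.3 Mb at its end. In siControl embryos it extended beyond its 4-cell limits on both sides, by 0.9 Mb at its start and 0.3 Mb at its end. Over all chromosomes, LAD coverage went from 32.9 to 44.7% in siControl and from 43.5 to 42.9% in siRif1 embryos. With LADs shorter by 1 bin at each end the stage difference was -1 gene in siRif1 and 4 genes in siControl embryos, in place of -2 and 2. These stage comparisons share their maps with the treatment comparisons above.

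**Figure D2:**
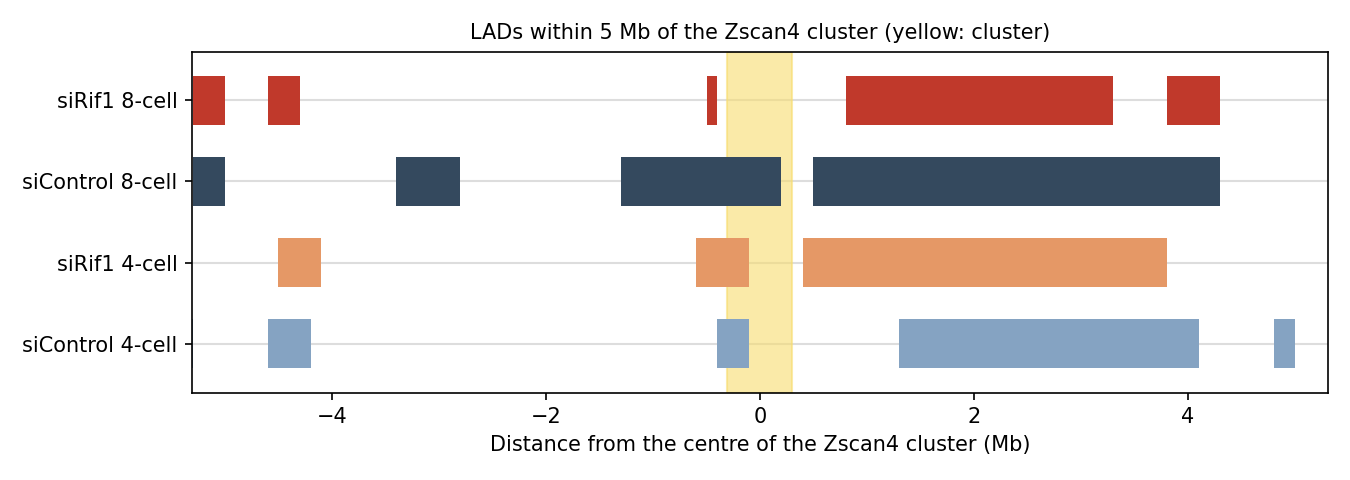
LADs (bars) of the 4 maps within 5 Mb of the cluster, against distance in Mb from its centre, with the cluster in yellow. A LAD of 2.5 to 3.8 Mb after the cluster is present in all maps, and the bars before and over the cluster differ in length.

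Genes next to the cluster shared part of its pattern. The 5 nearest protein-coding genes on each side are the pheromone receptor genes Vmn1r68 to Vmn1r71 and Nlrp4b, a gene of the Nlrp family, before it, and Vmn1r72 to Vmn1r76 after it. No other protein-coding gene lies inside the cluster. Nlrp4b and Vmn1r71 had the states of Zscan4a and Zscan4b in all 4 maps. Vmn1r70 alone of the 5 before it was in a LAD in siRif1 8-cell embryos, in the single-bin LAD described above. Vmn1r72 to Vmn1r75 were in LADs in siControl 8-cell and siRif1 4-cell embryos and outside in siRif1 8-cell and siControl 4-cell embryos, and Vmn1r76 was in LADs in 3 maps.

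The siControl 8-cell LAD over Zscan4a to Zscan4d held 17 protein-coding genes. Besides 3 Zscan4 genes these were Vmn2r47 to Vmn2r52, Vmn1r66 to Vmn1r71, the zinc finger gene Zik1 and Nlrp4b. The 17 were picked because they lie in this LAD, so no other map could hold more of them. Of the 17, 1 was in a LAD in siRif1 8-cell, 6 in siRif1 4-cell and 3 in siControl 4-cell embryos. For scale, 5295 protein-coding genes were in LADs in siControl 8-cell embryos. Of these, 1888 were outside LADs in siRif1 8-cell embryos and 2248 in siControl 4-cell embryos. Within 5 Mb of the cluster, 14 of 144 other protein-coding genes (9.72%) had the pattern of Zscan4c, against 150 of 1941 on chromosome 7 (7.73%, the Zscan4 genes included) and 3.76% in all. They were 11 Vmn2r genes, Vmn1r66, Vmn1r67 and Zik1. The pattern of Zscan4b was shared by 6 of the 144 (4.17%), Nlrp4b, Vmn1r71, the sulfotransferase genes Sult2a7 and Sult2a8, Vmn1r90 and the homeobox gene Obox7.

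Receptor genes made up much of this neighbourhood. Of the 28 Vmn1r genes within 5 Mb, 18 were in LADs in siRif1 8-cell and 28 in siControl 8-cell embryos, and 23 in siRif1 4-cell and 7 in siControl 4-cell embryos. Over all 228 Vmn1r genes in the span the shares were 39.5% in siRif1 8-cell and 66.2% in siControl 8-cell embryos, and 17.1% in each 4-cell group. Of the 28 Vmn2r genes within 5 Mb, 4 were in LADs in siRif1 8-cell and 15 in siControl 8-cell embryos, and 4 in each of the 4-cell groups. Over all 121 Vmn2r genes the shares were 46.3% in siRif1 8-cell and 75.2% in siControl 8-cell embryos, and 24.8% in siRif1 4-cell and 10.7% in siControl 4-cell embryos. For the 144 genes of any kind within 5 Mb, the Zscan4 genes left out, they were 41.7% in siRif1 8-cell, 56.2% in siControl 8-cell, 45.8% in siRif1 4-cell and 39.6% in siControl 4-cell embryos. Zinc finger genes named Zfp varied less within 5 Mb, with 7, 7, 7 and 8 of 18 in siRif1 8-cell, siControl 8-cell, siRif1 4-cell and siControl 4-cell embryos. The same 7 lie in a stretch that was in LADs in all 4 maps, described next. Over all 379 Zfp genes in the span the shares were 15.3, 21.4, 13.2 and 22.2% in the same order.

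Further along, 2.0 Mb from 12400001 to 14400000 lay in LADs in all 4 maps, 997 kb after Zscan4f. It made up 20 of the 108 bins within 5 Mb (18.5%), and 17.2% of bins of all chromosomes were LAD in all 4 maps. Of all protein-coding genes, 9.66% were in LADs in all 4 maps. The stretch of 2.0 Mb held 40 protein-coding genes, among them Vmn2r53 to Vmn2r56, Vmn1r85 to Vmn1r89, Trim28, a corepressor known to silence retroelements and Dux, the DNA ligase gene Lig1, and Zscan18 and Zscan22, SCAN-domain relatives of Zscan4. Zscan4e and Zscan4f in contrast lay in 0.2 Mb (11300001 to 11500000) that was outside LADs in all 4 maps, the shortest of 6 such stretches within 5 Mb. The longest, 1.5 Mb from 8300001 to 9800000, held 7 Vmn2r genes and Gm10302.

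Coverage gave the same order as the genes at the 8-cell stage. Within 5 Mb of the cluster, LADs took up 34.9% of bases in siRif1 8-cell and 58.4% in siControl 8-cell embryos. At the 4-cell stage they took up 40.5% in siRif1 and 34.9% in siControl embryos. Over the cluster itself the values were 0.0% in siRif1 8-cell, 83.2% in siControl 8-cell and 33.8% in either 4-cell group. Chromosome 7, from its first to its last LAD in any map (5100001 to 144300000), had 35.0% in siRif1 8-cell and 49.6% in siControl 8-cell embryos, and 41.3% in siRif1 4-cell and 37.0% in siControl 4-cell embryos. The 8-cell difference of the cluster thus has the sign of its chromosome's. Over the span of LADs on all chromosomes, coverage was 42.9% in siRif1 8-cell and 44.7% in siControl 8-cell embryos, a smaller difference of the same sign. At the 4-cell stage it was 43.5% in siRif1 and 32.9% in siControl embryos, the latter the lowest of the 4 maps.

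**Figure D3:**
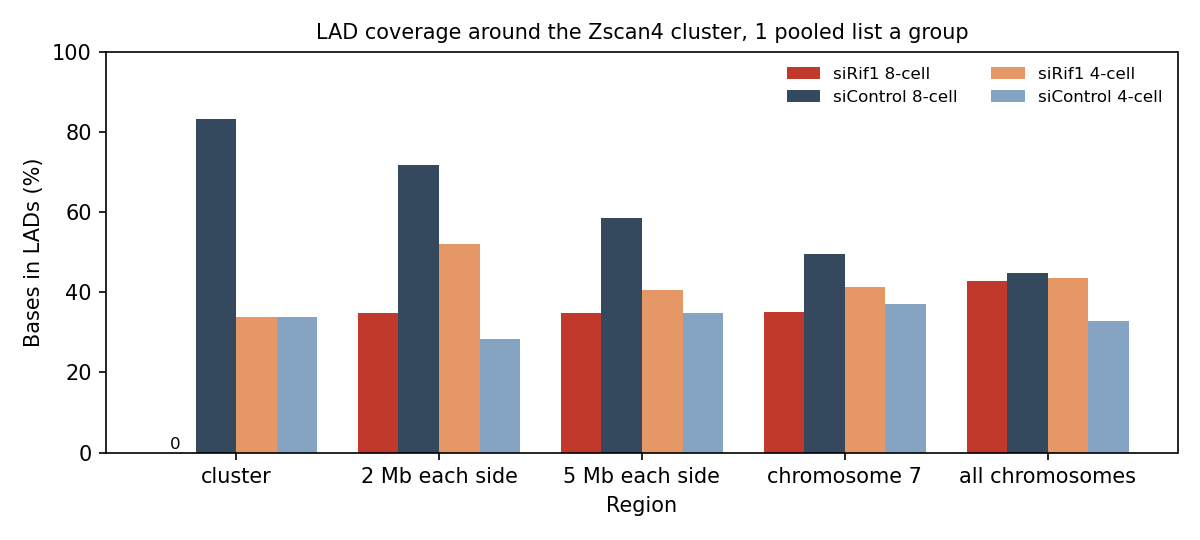
Percent of bases in LADs over the cluster, with 2 Mb or 5 Mb on each side, on chromosome 7 and on all chromosomes, 1 bar for each pooled map and so without error bars. The siControl 8-cell bar is the highest in each region, from 83.2% over the cluster to 44.7% over all chromosomes, and the siRif1 8-cell map has no LAD bases over the cluster.

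In bins of 100 kb, 16 of the 108 within 5 Mb (14.8%) were LAD in siControl 8-cell embryos alone, against 4.32% of 23849 bins of all chromosomes, and 0 were LAD in siRif1 8-cell embryos alone, against 6.10%. Of the 16 bins, 3 (11000001 to 11300000) hold Zscan4c and Zscan4d. The others lie at 7700001 to 8300000 and at 9800001 to 10500000, and hold 11 Vmn2r genes, Vmn1r66, Vmn1r67 and Zik1. Bins that were LAD in all maps but siRif1 8-cell numbered 8 (7.41%, all chromosomes 4.87%), of which 3 (10700001 to 11000000) hold Zscan4a and Zscan4b.

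Further genes were placed in the same way, in lists chosen for known roles, for expression at the 2-cell stage or for the Zscan name. For scale, 57.4% of all protein-coding genes were in no LAD in any map, and 24.0 to 26.3% were in LADs in each map. Among 10 activators of the 2-cell programme, 3 were in LADs in siRif1 8-cell, 4 in siControl 8-cell, 1 in siRif1 4-cell and 2 in siControl 4-cell embryos, and 5 were in none. Duxf3, the Dux gene, was in a LAD in siRif1 4-cell embryos alone. Dppa2 and Dppa4, which activate Dux, were outside LADs in siRif1 4-cell embryos alone. Trp53, which encodes the stress-response factor p53 and can activate Dux, was in a LAD in siControl 8-cell embryos alone, the state of Zscan4c in all 4 maps. Obox2, of the Obox homeobox family of the early embryo, was in LADs in the siRif1 8-cell and siControl 8-cell maps. Obox1, Obox3, Obox5, Obox6 and Nelfa, which encodes a subunit of the negative elongation factor, were outside LADs throughout.

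Of 9 repressors of that programme, 6 were outside LADs in all 4 maps, against 57.4% of all protein-coding genes. Among the 6 were Rif1 itself and the histone-modifying enzymes Kdm1a and Setdb1. Trim28 was in a LAD in all 4. Chaf1b, a subunit of the chromatin assembly factor CAF-1, was in a LAD in siRif1 8-cell embryos alone and Ehmt2, a histone methyltransferase gene, in siControl 4-cell embryos alone. None had the pattern of Zscan4b or Zscan4c, found for 3.29% and 3.76% of all protein-coding genes, so few would be looked for among 9.

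Of 19 genes expressed with Zscan4 at the 2-cell stage, 9 were in LADs in siRif1 8-cell, 9 in siControl 8-cell, 6 in siRif1 4-cell and 7 in siControl 4-cell embryos. At the 8-cell stage 3 were in LADs in siRif1 and not siControl embryos (Tcstv1, Tdpoz3 and Tdpoz4), against 7.33% of all protein-coding genes. Another 3 were in LADs in siControl and not siRif1 embryos, against 9.37%, namely Tcstv3 and the deubiquitinase genes Usp17lc and Usp17ld. The last 3 had the state of Zscan4c in all 4 maps, as did 3.76% of all protein-coding genes. Usp17lc and Usp17ld are neighbours on chromosome 7, at 103416696 and 103250086. Usp17la, Usp17lb and Usp17le, further along, were in LADs in all 4 maps, as were Ubtfl1 and Ddit4l. Zfp352 was in LADs in the siRif1 8-cell and siControl 8-cell maps, Arg2 in siControl 4-cell embryos alone, and Eif1a in the siRif1 4-cell and siControl 4-cell maps. Tdpoz1, Tdpoz2, Tdpoz5, Tmem92 and Sp110 were in none. None of the 19 had the pattern of Zscan4b, found for 3.29% of all protein-coding genes. As many of the 19 were in LADs in siRif1 8-cell as in siControl 8-cell embryos.

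**Figure D4:**
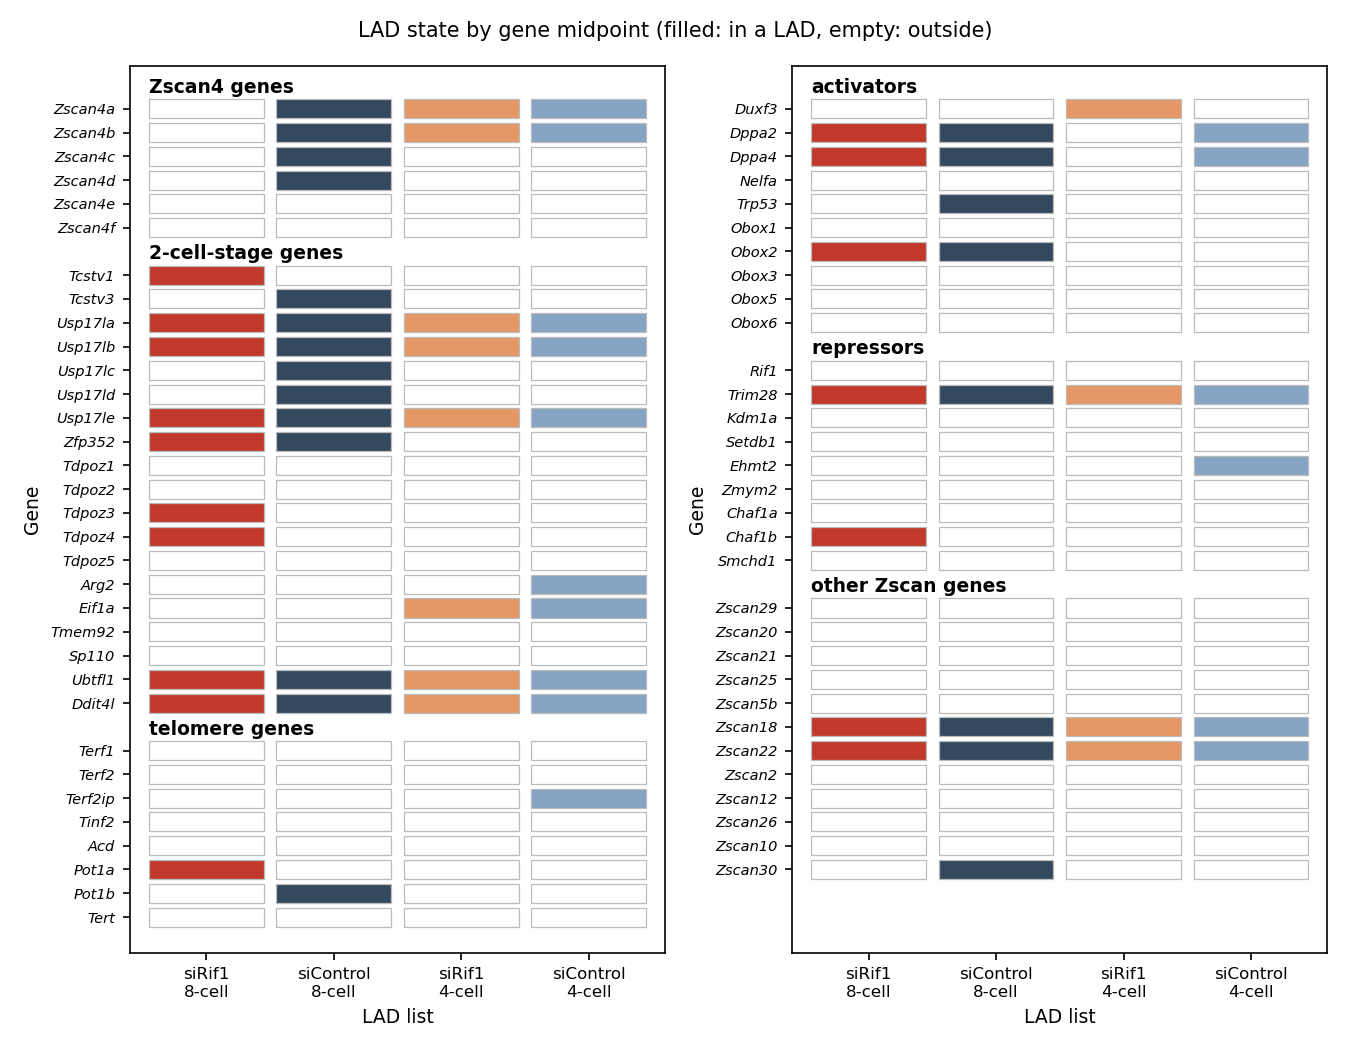
LAD state by gene midpoint (filled, in a LAD; empty, outside) for the 6 Zscan4 genes and the genes of 5 lists, 1 column for each pooled map. Of the 6 Zscan4 genes 0, 4, 2 and 2 are filled from left to right, and of the 19 genes of the 2-cell stage 9, 9, 6 and 7.

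Of 8 telomere genes, 5 were outside LADs in all maps, against 57.4% of all protein-coding genes. Among the 5 were Tert, the catalytic subunit of telomerase, and Terf1 and Terf2, which bind telomeric repeats. The single-strand telomere-binding genes Pot1a and Pot1b were in LADs in siRif1 8-cell embryos alone and in siControl 8-cell embryos alone, in that order, and Terf2ip in siControl 4-cell embryos alone. Of 12 other Zscan genes, 9 were in no LAD, Zscan18 and Zscan22 were in LADs in all 4 maps, and Zscan30 was in a LAD in siControl 8-cell embryos alone. Of all protein-coding genes, 32.9% differed in state between at least one pair of the 4 maps.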

How the data were processed

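The authors' notes on processing name mm10 (GRCm38) as the build and list Picard, SAMtools, Bowtie2 and Trimmomatic, without versions, per the submitters' processing notes. How LADs were called from the 12 samples is not given in the sources used here. The deposited lists give start and end of each LAD on a 100-kb grid, 1 list per group made from its 3 replicates, with a score field of 0 that was not used. Depth is unknown, so no interval can be given. Reads from near-identical Zscan4 copies may not be uniquely placed, and the embryos' strains may differ from the reference in copy number. Neither was tested.

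Genes came from RefSeq GRCm38.p6, leaving out 333 of 47042 entries on chromosomes 1 to 19 that are listed out of position order and carry scaffold coordinates. The 6 names matched 6 entries, and promoters were found for 4. Intervals were compared in Python 3.11.15, promoters aligned with Biopython 1.88 (end gaps free). The functions were tested on simulated lists. Coordinates are 1-based.

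Named genes were the 6 genes, family pseudogenes, the 5 nearest genes on each side, genes at the nearest borders, and list genes. Genes sharing a pattern or lying in a common stretch were added after values were seen, as was TATAAA. The members, lists and alternatives were chosen with earlier results of these data known.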

Additional observations from a re-analysis of the deposited data

Results flagged for a closer look

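The number of Zscan4 genes in LADs differed between stages in opposite directions in the 2 treatments. The change from the 4-cell to the 8-cell stage was -2 genes in siRif1 embryos and 2 genes in siControl embryos. With 1 pooled map per group this difference was not tested. Coverage within 5 Mb of the cluster also differed between treatments in opposite directions at the 2 stages. It was -23.6 percentage points at the 8-cell stage (siRif1 minus siControl) and 5.6 percentage points at the 4-cell stage, which was not tested either. The signs were the same over all chromosomes. Coverage there was 42.9% in siRif1 and 44.7% in siControl embryos at the 8-cell stage, and 43.5% and 32.9% at the 4-cell stage.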

How the results depend on the processing

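Each map pools its replicates, so no replicate could be left out. No paired analysis was possible because each deposited list is made from all 3 replicates of its group. The net 8-cell difference between siRif1 and siControl embryos was -4 genes under all 7 alternatives, though not always for the same genes. Requiring LADs of at least 300 kb, bridging gaps of up to 200 kb, and placing genes by any overlap, by their whole length or, added after the data were seen, by transcription start changed no count of Zscan4 genes. Moving borders by 1 bin did. With LADs longer by 1 bin at each end, 1 gene was in a LAD in siRif1 8-cell (5 in siControl 8-cell) and 4 in siRif1 4-cell embryos (3 in siControl 4-cell), a 4-cell difference of 1. With LADs shorter by 1 bin, 1 gene was in a LAD in siRif1 4-cell and 0 in siControl 4-cell embryos, again a difference of 1. The stage difference was then -1 in siRif1 and 4 in siControl embryos. The 4-cell counts therefore rest on single bins, and both 8-cell counts also moved by 1 gene with longer LADs.

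Coverage within 5 Mb, given for siRif1 8-cell, siControl 8-cell, siRif1 4-cell and siControl 4-cell embryos in this order, was 43.4, 65.1, 46.2 and 43.4% with longer LADs, and 26.4, 50.9, 34.9 and 27.3% with shorter ones. With 2 Mb on each side it was 34.8, 71.7, 52.1 and 28.3%, and over the cluster alone 0.0, 83.2, 33.8 and 33.8%. LADs of at least 300 kb gave 33.9% in siRif1 8-cell and 33.0% in siControl 4-cell embryos, and bridged gaps 58.5% in siControl 8-cell embryos. Borders within 5 Mb numbered 10, 8, 6 and 9, and within 2 Mb 3 in each map. The lists give no depth, so what depth limits cannot be said.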
